A study of Mus musculus with 6 samples.

Results

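Integrins are adhesion receptors built from 1 alpha and 1 beta chain, and the 9 genes described here, Itgav and Itgb1 to Itgb8, encode the alpha V chain and all 8 classical beta chains of the mouse. They were taken by gene name from the 55298 genes in the deposited tables, and each name matched 1 row. RNA-seq libraries had been made from fibroblasts of orthotopic lung tumours, grown in wt C57BL/6 mice over 8 weeks old. apCAFs, the cancer-associated fibroblasts with MHCII on their surface, gave 3 libraries (apCAFs 1, 2 and 3), and nonapCAFs, the fibroblasts without it, gave 3 (nonapCAFs 4, 5 and 6). Both populations were sorted side by side from pooled tumours as large cells lacking CD45, CD31, EPCAM and mCherry and carrying PDPL and PDGFRa, as the labels name them, so each library mixes cells of several mice.

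The alpha V chain pairs with the beta 1, 3, 5, 6 and 8 chains, and these receptors bind the RGD sequence in fibronectin, vitronectin and the latency peptide of TGF-beta. Beta 1 is the common partner of the collagen, laminin and fibronectin receptors of fibroblasts. Beta 4 pairs with alpha 6 alone, binds laminin and anchors epithelial cells through hemidesmosomes. Beta 2 and beta 7 are known as leukocyte chains: beta 2 pairs with alpha L, M, X and D, and beta 7 with alpha 4 and alpha E. Alpha V beta 6 and alpha V beta 8 are known for the activation of latent TGF-beta.

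Most beta chains end in a short tail inside the cell that carries NPxY or NPxF motifs, the docking sites of talin and kindlin. The last 150 coding bases, spliced and without the stop codon, are shown for the chains called (Itgb4 and Itgb8), for those lower in every apCAFs library (Itgb2 and Itgb7) and, for comparison, for Itgb1. Capitals mark in-frame codons of an NPxY or NPxF motif found in the GENCODE M21 transcripts (GRCm38). The stretches lie on chr11:116007853-116008097 (plus strand) for Itgb4, chr12:119163120-119163366 (minus strand) for Itgb8, chr10:77564715-77565237 (plus strand) for Itgb2, chr15:102216163-102216516 (minus strand) for Itgb7 and chr8:128726100-128732085 (plus strand) for Itgb1.
Itgb4: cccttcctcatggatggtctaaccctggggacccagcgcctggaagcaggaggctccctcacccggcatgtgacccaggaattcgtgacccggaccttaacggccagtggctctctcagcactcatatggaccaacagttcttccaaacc
Itgb8: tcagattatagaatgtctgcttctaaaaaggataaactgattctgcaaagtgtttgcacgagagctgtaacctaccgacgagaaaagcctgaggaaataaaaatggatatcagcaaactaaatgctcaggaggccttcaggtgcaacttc
Itgb2: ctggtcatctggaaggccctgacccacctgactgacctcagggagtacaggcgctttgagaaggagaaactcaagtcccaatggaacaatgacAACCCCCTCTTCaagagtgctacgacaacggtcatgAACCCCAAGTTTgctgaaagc
Itgb7: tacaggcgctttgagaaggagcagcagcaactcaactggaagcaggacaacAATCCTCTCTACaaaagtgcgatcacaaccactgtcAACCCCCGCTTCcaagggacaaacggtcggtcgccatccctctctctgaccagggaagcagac
Itgb1: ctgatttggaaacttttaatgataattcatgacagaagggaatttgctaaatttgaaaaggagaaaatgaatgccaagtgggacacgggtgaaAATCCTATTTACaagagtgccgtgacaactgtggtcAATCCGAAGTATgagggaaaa
Itgb1, Itgb2 and Itgb7 each carry 2 such motifs within their last 60 codons, and Itgb8 carries none there. In Itgb1 and Itgb2 the motifs begin 19 and 7 codons from the end, and in Itgb7 33 and 21 codons from the end. Itgb4, whose tail is far longer, has none in its last 60 codons of 1818.

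The values, called normalized counts below, were scaled by the authors and rounded to whole numbers. Their sums run from 89881929 to 93330791 in apCAFs and from 77960347 to 84259822 in nonapCAFs, but sequencing depth is unknown, so no counting interval is given. apCAFs 1 and 2 resembled each other closely, with an SD of 0.238 in the log2 ratio between them (17829 genes with a mean of at least 100), as did nonapCAFs 4 and 5 with 0.246. The other pairs within a group had 0.479 to 0.708. The labels do not say which libraries share an experiment, and p-values measure only the spread between these libraries. Genes that mark the sorted cells were present in every library: Pdgfra read 40769, 43116 and 89023 in apCAFs 1, 2 and 3, against 17628, 17653 and 21525 in nonapCAFs 4, 5 and 6. Of 7 fibroblast markers, 4 were called higher in apCAFs and none lower in limma, against 3.91% higher and 0.486% lower over all genes tested. Their sums were 1511964 to 2459461 in apCAFs and 556055 to 612700 in nonapCAFs. Lum, a collagen-binding proteoglycan gene of that list, lay the other way, with 8086 to 11304 in apCAFs and 15611 to 21256 in nonapCAFs. The part of these differences in the results below was not tested. In bulk samples like these, fewer cells of a type and less RNA per cell cannot be told apart.

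Of the 9 integrin genes, 2 rose in apCAFs, Itgb4 and Itgb8, and none fell by limma's test on log2(value + 1) at an adjusted p of 0.05. Over all 36443 genes tested, limma called 4.4% in either direction, 3.91% higher and 0.486% lower. Centring each library on its median moved that split to 891 higher and 337 lower genes, against 1425 higher and 177 lower as reported, and quantile normalization to 1049 higher and 281 lower. With the close pairs averaged, limma called 0 genes (4700 at an unadjusted p under 0.05), so every limma call named below was lost in that fit. The median log2 fold change of the 9 was 0.39, against -0.04 over all genes tested. The values of apCAFs and nonapCAFs did not overlap for 6 of the 9. Itgb3, Itgb4, Itgb5 and Itgb8 were higher in every apCAFs library, Itgb2 and Itgb7 were lower in every one, and Itgav, Itgb1 and Itgb6 overlapped. Such separation was common: 32.5% of all tested genes did not overlap, 17.1% higher and 15.4% lower, and 51.5% of those with a mean of at least 100. The authors' deposited table, from DESeq2, lists Itgb4 and Itgb8 as higher and Itgb2 and Itgb7 as lower at an adjusted p of 0.05. Of the 19255 genes with an adjusted p in the authors' deposited table, 30.3% pass, 20.6% as higher and 9.77% as lower.

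**Figure D1:**
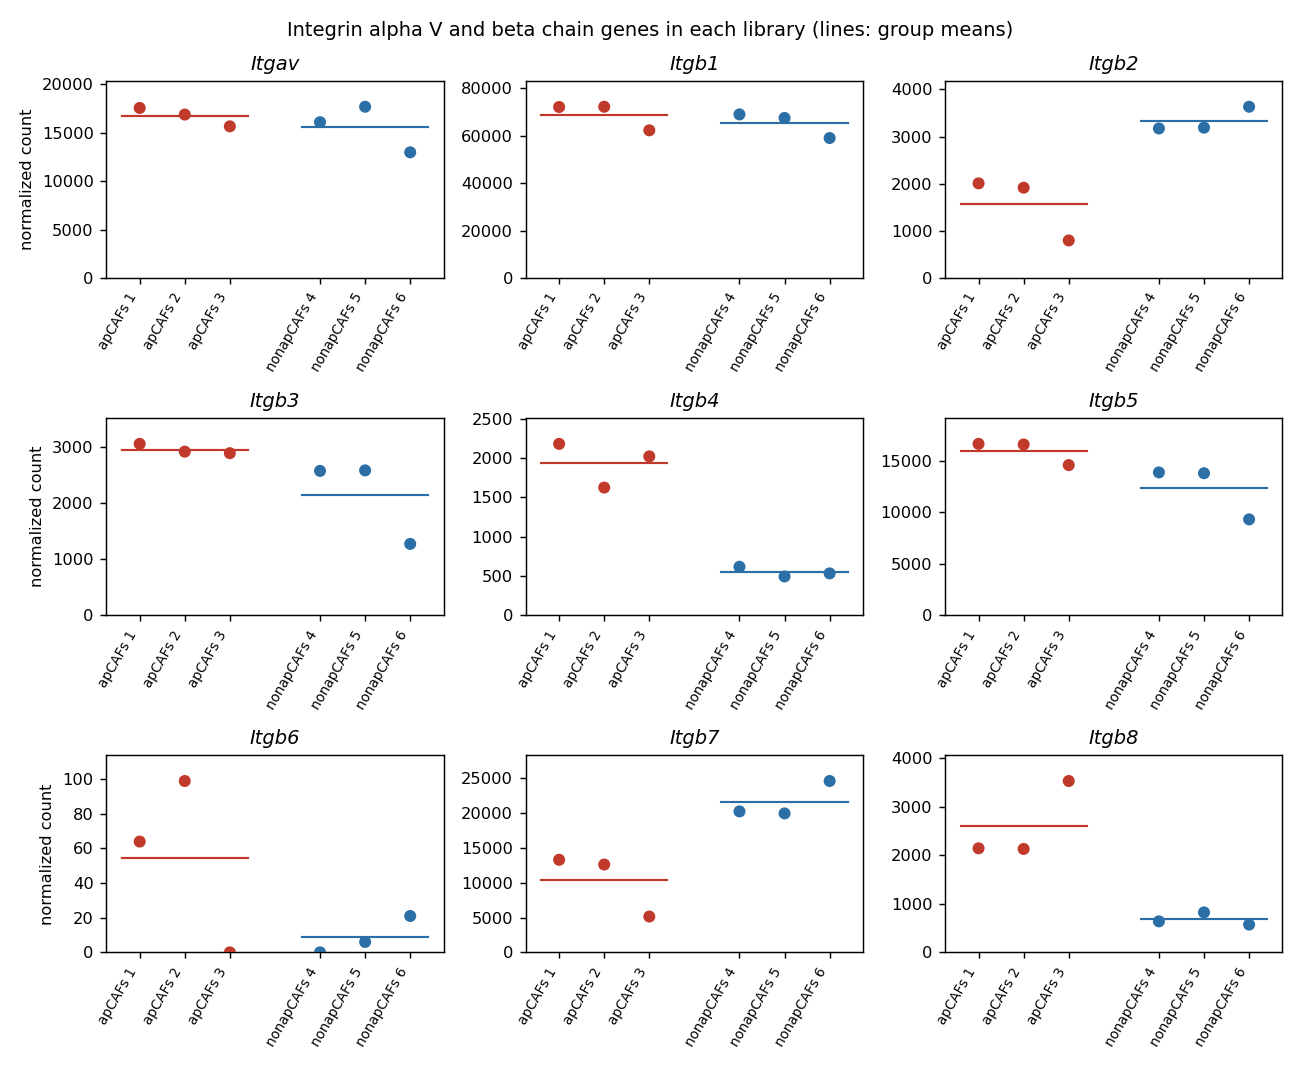
Normalized count of each of the 9 integrin genes in every library, apCAFs 1 to 3 in red and nonapCAFs 4 to 6 in blue, each panel on its own linear axis from 0; lines are group means of 3 libraries. Itgb4 and Itgb8 are higher in each apCAFs library, Itgb2 and Itgb7 are lower in each, and apCAFs 3 lies far below apCAFs 1 and 2 for Itgb2 and Itgb7.

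Itgb4 (chromosome 11, 115974709 to 116008412, plus strand, mm10), the laminin receptor chain of hemidesmosomes, had 2180, 1624 and 2021 normalized counts in apCAFs 1, 2 and 3, against 616, 493 and 532 in nonapCAFs 4, 5 and 6. The lowest apCAFs library lay well above the highest nonapCAFs library, and the libraries within each group lay close. The mean was 1942 ± 286 in apCAFs and 547.0 ± 62.9 in nonapCAFs (SD, n = 3 each), 3.53-fold higher on the log2(value + 1) scale (log2 1.82, SE 0.18, limma adjusted p = 0.0149). The authors' deposited table gives a log2 fold change of 1.83 (DESeq2 adjusted p = 1.88e-22). Exons of Itgb4 share 537 bases, 7.66% of their length, with the antisense transcript B230344G16Rik in GENCODE M21. The strand setting of the counting is not given in the sources used here, so reads from this stretch cannot be assigned to either gene. The call was lost without apCAFs 1 (limma adjusted p = 0.0549) and without nonapCAFs 5 (limma adjusted p = 0.0556), while the fold change stayed between 1.73 and 1.94 log2 whichever library was left out.

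Itgb8 (chromosome 12, 119158022 to 119238802, minus strand, mm10), the beta chain known for presenting latent TGF-beta for activation, had 2142, 2129 and 3528 normalized counts in apCAFs 1, 2 and 3, against 638, 822 and 571 in nonapCAFs 4, 5 and 6. Every apCAFs library lay above every nonapCAFs library, and apCAFs 3 was the highest of all. The mean was 2600 ± 804 in apCAFs and 677.0 ± 130 in nonapCAFs (SD, n = 3 each), 3.77-fold higher (log2 1.91, SE 0.28, limma adjusted p = 0.0289). The authors' deposited table gives a log2 fold change of 1.94 (DESeq2 adjusted p = 8.71e-12). The call held without apCAFs 3 (limma adjusted p = 0.0297), and it was lost when any other library was left out. Leaving out apCAFs 1 or 2 gave limma adjusted p = 0.0753 or 0.0725, and leaving out nonapCAFs 4, 5 or 6 gave 0.109, 0.0756 or 0.081. With median-centred values Itgb8 also missed the threshold (log2 1.49, limma adjusted p = 0.0532).

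Lists of genes that mark other cells were counted as well. Of 8 mesothelial markers, 7 were called higher in apCAFs, and their summed normalized counts ran from 40228 to 51533 in apCAFs and from 5276 to 5987 in nonapCAFs. Of 8 pericyte and smooth muscle markers, 4 were called higher, with sums of 36256 to 39691 in apCAFs and 9381 to 12921 in nonapCAFs. Rgs5, a pericyte gene of that list, lay the other way without passing. Its log2 fold change in the authors' deposited table is -1.90 (DESeq2 adjusted p = 0.0747). Of 8 endothelial markers, 0 were called in limma and 0 of the 5 with an adjusted p pass in the authors' deposited table, with sums of 966 to 1512 in apCAFs and 1248 to 1458 in nonapCAFs. No marker of the mesothelial list and none of the pericyte list was at 0 in any library. Of 13 alveolar type II and epithelial markers, 1 was called higher in limma, and 9 pass as higher in the authors' deposited table. The called gene was Krt19, which is also in the mesothelial list. Their sums were 102261, 85710 and 9361 in apCAFs 1, 2 and 3, against 12588, 11783 and 8993 in nonapCAFs 4, 5 and 6. The part of these cells in the Itgb4 and Itgb8 results was not tested.

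Itgb2 and Itgb7, the chains known from leukocytes, were both abundant in these fibroblast libraries and lower in apCAFs. Itgb7 (chromosome 15, 102215995 to 102231944, minus strand, mm10) had 13306, 12624 and 5147 normalized counts in apCAFs 1, 2 and 3, against 20260, 19972 and 24633 in nonapCAFs 4, 5 and 6. Itgb2 (chromosome 10, 77530252 to 77565708, plus strand, mm10) had 2009, 1917 and 798 in apCAFs 1, 2 and 3, against 3173, 3190 and 3634 in nonapCAFs 4, 5 and 6. For both genes the groups did not overlap, apCAFs 3 was the lowest library and nonapCAFs 6 the highest.

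Itgb7 averaged 10359 ± 4527 in apCAFs and 21622 ± 2612 in nonapCAFs (SD, n = 3 each; log2 fold change -1.18, SE 0.41), and Itgb2 averaged 1575 ± 674 in apCAFs and 3332 ± 261 in nonapCAFs (log2 fold change -1.19, SE 0.40). Neither passed in limma (adjusted p = 0.214 for Itgb7 and 0.196 for Itgb2), while the authors' deposited table lists both as lower, with DESeq2 adjusted p = 0.00828 for Itgb7 and 0.00677 for Itgb2. Without apCAFs 3 the log2 fold change was -0.73 for Itgb7 and -0.76 for Itgb2 (limma adjusted p = 0.0852 and 0.0536). Under all 16 alternatives the log2 fold change stayed below 0 for both genes and neither passed.

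The ratio of Itgb7 to Itgb2 hardly varied although each gene ranged more than 4-fold. Per kilobase of exon, Itgb7 exceeded Itgb2 by 7.30, 7.26 and 7.11 times in apCAFs 1, 2 and 3, and by 7.04, 6.90 and 7.47 times in nonapCAFs 4, 5 and 6. This ratio is taken within a library and does not depend on the scaling between libraries. Among the 17828 other genes with a mean of at least 100, the one whose profile over the 6 libraries was most like that of Itgb2 was Itgb7, with a root mean square difference of 0.0375 in centred log2 values. Itgb7 was closest to Nova2, a neuronal splicing factor gene (0.0365), and next to Itgb2. The second gene for Itgb2 was Apcdd1, a Wnt inhibitor gene (0.0466), with 10600 ± 4463 in apCAFs and 22051 ± 666 in nonapCAFs (SD, n = 3 each).

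A list of 14 leukocyte markers was set beside these chains. Of the 14, 1 was called higher in apCAFs, Lcp1, an actin-bundling protein gene of leukocytes, and none lower. Of the 8 with an adjusted p in the authors' deposited table, 4 pass as higher, and the values of 5 of the 14 did not overlap, all higher in apCAFs. Over all genes, limma called 3.91% higher and 20.6% pass as higher in the authors' deposited table. Of all tested genes, 17.1% did not overlap as higher in apCAFs and 15.4% as lower, together 32.5%. The 14 markers summed to 2594 to 4411 in apCAFs and 1586 to 1926 in nonapCAFs. Ptprc, which encodes CD45, had 24, 22 and 65 in apCAFs 1, 2 and 3, against 2, 29 and 34 in nonapCAFs 4, 5 and 6. Itgb7 alone was above the summed markers in every library, and the part of leukocytes in the Itgb2 and Itgb7 values was not tested. The alpha chains that beta 7 is known to pair with were near the floor of the data. Itga4 and Itgae, named here after their values were seen, summed to 10.2, 8.04 and 11.9 normalized counts per kilobase in apCAFs 1, 2 and 3, and to 13.1, 10.2 and 9.78 in nonapCAFs 4, 5 and 6. Itgb7 exceeded that sum by 471, 567 and 157 times in apCAFs 1, 2 and 3 and by 556, 704 and 910 times in nonapCAFs 4, 5 and 6. The size of these ratios depends on exon length, 13.978 kilobases for Itga4 and 2.77 for Itgb7. Undivided, Itga4 had at most 56 normalized counts and Itgae at most 53 in any library.

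The alpha partners of beta 2, Itgal, Itgam, Itgax and Itgad, summed to 74.1, 79.6 and 58.2 normalized counts per kilobase in apCAFs 1, 2 and 3, and to 115, 132 and 124 in nonapCAFs 4, 5 and 6. Itgax, the alpha X chain gene, made up most of this sum in each library. Itgax had 267, 303 and 177 normalized counts in apCAFs 1, 2 and 3, against 526, 556 and 553 in nonapCAFs 4, 5 and 6, so it too was lower in every apCAFs library (log2 -1.16, SE 0.24, limma adjusted p = 0.0658), with a DESeq2 adjusted p of 6.25e-05 in the authors' deposited table. Itgax was named after its values were seen. Alpha 6, the only known partner of beta 4, ran opposite to it. Itga6, also named after its values were seen, had 10425, 8905 and 4726 normalized counts in apCAFs 1, 2 and 3, against 15131, 16275 and 14970 in nonapCAFs 4, 5 and 6 (log2 -1.02, SE 0.33, limma adjusted p = 0.181), with a DESeq2 adjusted p of 0.00426 in the authors' deposited table. Per kilobase, Itga6 exceeded Itgb4 by 3.72, 4.26 and 1.82 times in apCAFs 1, 2 and 3 and by 19.1, 25.7 and 21.9 times in nonapCAFs 4, 5 and 6. Alpha 6 also pairs with beta 1, so this ratio does not give the amount of the alpha 6 beta 4 receptor.

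**Figure D2:**
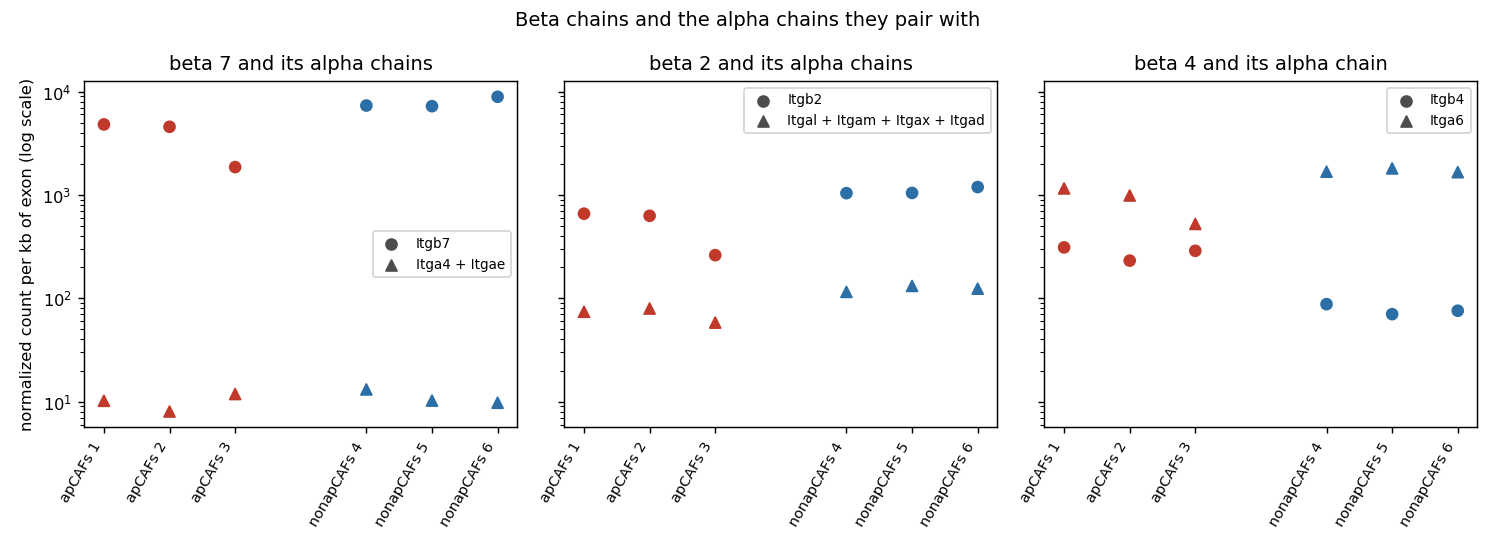
Normalized count per kilobase of exon (log axis) in each library for Itgb7, Itgb2 and Itgb4 (circles) and for the alpha chains each pairs with (triangles), apCAFs in red and nonapCAFs in blue. Itgb7 lies at least 157 times above its alpha chains in every library, and Itga6 exceeds Itgb4 by 1.82 to 4.26 times in apCAFs and by 19.1 to 25.7 times in nonapCAFs.

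Itgav (chromosome 2, 83724397 to 83806916, plus strand, mm10), the alpha V chain gene itself, had 17574, 16891 and 15675 normalized counts in apCAFs 1, 2 and 3, against 16103, 17700 and 12990 in nonapCAFs 4, 5 and 6. The groups overlapped, and only nonapCAFs 6 stood lower. The log2 fold change was 0.11 with a 95% interval from -0.32 to 0.54 (limma adjusted p = 0.707), which spans 0.801-fold to 1.45-fold. The sign of the Itgav change turned with median-centred values (-0.31), with library totals (-0.042) and without nonapCAFs 6 (-0.016). Itgb8 is known to pair with alpha V only. Per kilobase, Itgav exceeded Itgb8 by 8.45, 8.17 and 4.57 times in apCAFs 1, 2 and 3 and by 26.0, 22.2 and 23.4 times in nonapCAFs 4, 5 and 6. The closest profile to that of Itgav belonged to Creb3l2 (root mean square difference 0.0252), a transcription factor gene of the secretory pathway. An antisense transcript, Gm13684, overlaps 5.9% of the Itgav exons and read 13 to 78 in apCAFs and 22 to 134 in nonapCAFs.

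Itgb1 (chromosome 8, 128685654 to 128733200, plus strand, mm10), the common partner chain of the matrix receptors, had 72080, 72199 and 62254 normalized counts in apCAFs 1, 2 and 3, against 68972, 67463 and 59014 in nonapCAFs 4, 5 and 6. The groups overlapped and did not differ beyond their spread (log2 0.08, 95% interval -0.29 to 0.45, limma adjusted p = 0.76), and the sign turned under 4 other scalings (-0.34 to -0.023). Its closest profiles were those of the fatty acid oxidation gene Acadl (0.0157) and of Dbnl (0.0187), which encodes an actin-binding protein.

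Itgb5 (chromosome 16, 33829665 to 33949338, plus strand, mm10), the vitronectin receptor chain of many adherent cells, had 16672, 16612 and 14605 normalized counts in apCAFs 1, 2 and 3, against 13893, 13817 and 9324 in nonapCAFs 4, 5 and 6. Each apCAFs library was above each nonapCAFs library, but by little, and nonapCAFs 6 stood lower than the rest (log2 0.39, SE 0.21, limma adjusted p = 0.353). Itgb3 (chromosome 11, 104608000 to 104670476, plus strand, mm10), which pairs with alpha V and in platelets with alpha IIb, had 3062, 2923 and 2896 in apCAFs 1, 2 and 3, against 2579, 2588 and 1274 in nonapCAFs 4, 5 and 6. Again the groups did not overlap and nonapCAFs 6 was far below its neighbours (log2 0.54, SE 0.32, limma adjusted p = 0.399). Without nonapCAFs 6 the log2 fold change was 0.20 for both Itgb3 and Itgb5, and neither passed. With median-centred values Itgb5 was at -0.029. In the authors' deposited table the DESeq2 adjusted p was 0.197 for Itgb3 and 0.119 for Itgb5. The closest profiles were P4ha1, a collagen prolyl hydroxylase gene, for Itgb5 (0.0326) and Alpl, an alkaline phosphatase gene, for Itgb3 (0.0499). The 6 platelet markers summed to 1185 to 1273 in apCAFs and 900 to 1251 in nonapCAFs, and their part in the Itgb3 values was not tested. Only Gp1bb among them has an adjusted p in the authors' deposited table (DESeq2 adjusted p = 0.617), so the sum is not a measure of platelets. Gp6 was at 0 throughout and Gp9 in all libraries but apCAFs 3. Treml1, the only 1 of the 5 tested platelet markers called, was higher at 8, 15 and 31 in apCAFs 1, 2 and 3, against 0 in each nonapCAFs library. These values lie near the floor of the data, and limma called 3.91% of all genes tested as higher.

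Itgb6 (chromosome 2, 60598292 to 60722643, minus strand, mm10), the epithelial partner of alpha V, was the faintest member. It had 64, 99 and 0 normalized counts in apCAFs 1, 2 and 3, against 0, 6 and 21 in nonapCAFs 4, 5 and 6. The groups overlapped, since the highest values were those of apCAFs 1 and 2 and apCAFs 3 was listed at 0 (log2 1.80, SE 2.16, limma adjusted p = 0.621). The value was 3.91 without apCAFs 3, from 0.59 to 0.90 without apCAFs 1, apCAFs 2 or nonapCAFs 4, and 2.82 without nonapCAFs 6. The sum of 13 alveolar type II and epithelial markers was also highest in apCAFs 1 and 2, though Krt18 was highest in nonapCAFs 4 and 5 and Krt19, the called member, in apCAFs 3. The 13 genes summed to 102261, 85710 and 9361 in apCAFs 1, 2 and 3, against 12588, 11783 and 8993 in nonapCAFs 4, 5 and 6. Within nonapCAFs the order was the reverse of that of Itgb6, which was highest in nonapCAFs 6, where the sum was lowest. Krt8 and Lamp3 changed little, with log2 fold changes of 0.13 and 0.24 in the authors' deposited table. Nkx2-1, a transcription factor gene of lung epithelium named outside the rule, had 806, 453 and 0 in apCAFs 1, 2 and 3, against 11, 5 and 0 in nonapCAFs 4, 5 and 6. The part of epithelial cells in the Itgb6 values was not tested.

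**Figure D3:**
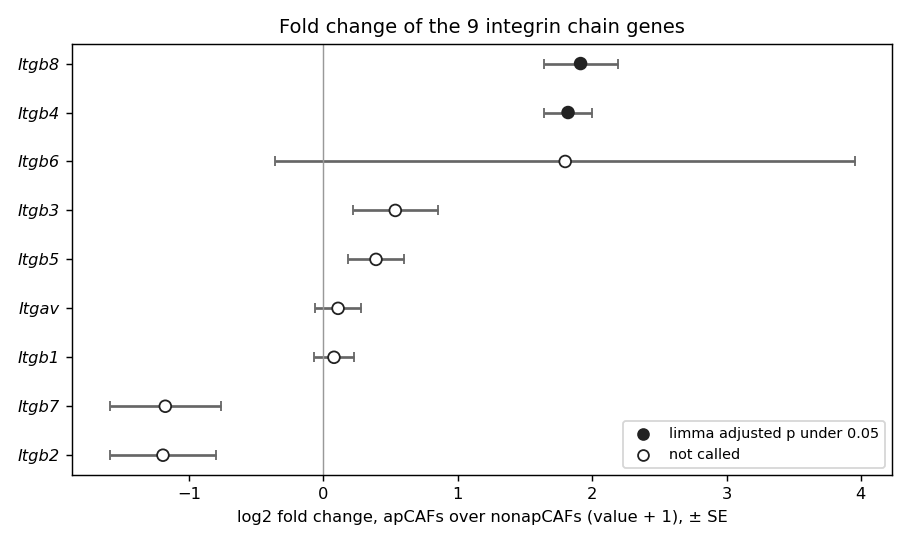
Log2 fold change of the 9 integrin genes, apCAFs over nonapCAFs, on log2(value + 1), with the SE from limma as bars; filled points passed an adjusted p of 0.05. Itgb8 (1.91) and Itgb4 (1.82) passed, Itgb6 (1.80) has the widest error, and Itgb7 (-1.18) and Itgb2 (-1.19) lie below 0 without passing.

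Per kilobase of exon, Itgb1 was the most abundant chain in both groups, with 16869 ± 1399 in apCAFs and 15964 ± 1315 in nonapCAFs (SD, n = 3 each). In apCAFs the order below it was Itgb5 (4493 ± 331), Itgb7 (3740 ± 1634), Itgav (1556 ± 90), Itgb2 (516 ± 221), Itgb3 (502 ± 15), Itgb4 (277 ± 41), Itgb8 (235 ± 73) and Itgb6 (7.64 ± 7.06). The ranges of Itgb5 and Itgb7, of Itgb2 and Itgb3, and of Itgb4 and Itgb8 overlapped, so these neighbours did not differ beyond their spread in apCAFs. In nonapCAFs the order below Itgb1 was Itgb7 (7806 ± 943), Itgb5 (3474 ± 736), Itgav (1452 ± 223), Itgb2 (1092 ± 86), Itgb3 (364 ± 128), Itgb4 (78.0 ± 9.0), Itgb8 (61.2 ± 11.8) and Itgb6 (1.27 ± 1.52). There the ranges of Itgb4 and Itgb8 overlapped, and those of Itgb7 and Itgb5 did not. The order below Itgb1 depends on the division by exon length. In undivided normalized counts in apCAFs, Itgav (mean 16713) lay above Itgb5 (15963) and Itgb7 (10359). Itgb3 (2960), Itgb8 (2600) and Itgb4 (1942) lay above Itgb2 (1575) there.

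As shares of the summed level of the 8 beta chains per kilobase, Itgb1 made up 61.2%, 62.1% and 67.6% in apCAFs 1, 2 and 3, and 56.8%, 56.5% and 52.6% in nonapCAFs 4, 5 and 6. Itgb7 made up 16.7%, 16.0% and 8.23% in apCAFs 1, 2 and 3, and 24.6%, 24.6% and 32.3% in nonapCAFs 4, 5 and 6. Itgb5 made up 16.3%, 16.4% and 18.2% in apCAFs 1, 2 and 3, and 13.1%, 13.3% and 9.54% in nonapCAFs 4, 5 and 6. Itgb4 and Itgb8, the chains that rose, stayed minor, at 1.06% ± 0.23 and 0.920% ± 0.427 in apCAFs and 0.270% ± 0.028 and 0.212% ± 0.037 in nonapCAFs (SD, n = 3 each). Shares sum to a whole, so a lower Itgb7 share raises the others, and their size depends on the exon lengths used.

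**Figure D4:**
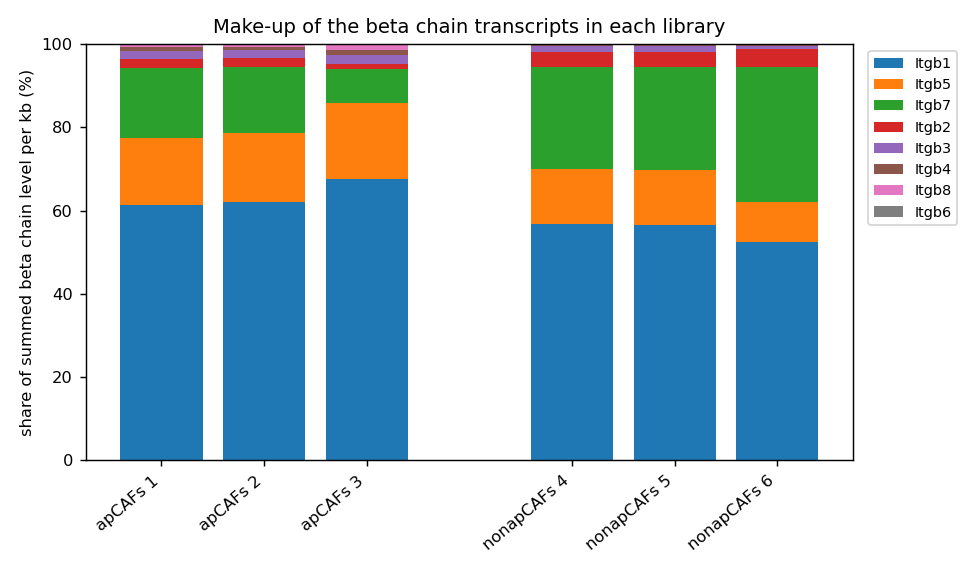
Share of each beta chain in the summed level of the 8 beta chains, in normalized counts per kilobase of exon, stacked for apCAFs 1 to 3 and nonapCAFs 4 to 6. Itgb7 takes 8.23% to 16.7% in apCAFs and 24.6% to 32.3% in nonapCAFs, and Itgb4 and Itgb8 remain thin bands at the top.

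The other genes of integrin adhesion were counted by list. Over all genes tested, limma called 3.91% higher and 0.486% lower, so 1 called gene in a list of 15 to 25 lies near that share. Of 17 further alpha chain genes, 1 was called higher and none lower (median log2 fold change 0.70, against -0.04 over all genes). The called gene was Itga9, named because it was the only one, which encodes a tenascin receptor chain that pairs with beta 1. Itga9 had 4555, 4544 and 7460 normalized counts in apCAFs 1, 2 and 3, against 1205, 1219 and 959 in nonapCAFs 4, 5 and 6 (log2 2.26, SE 0.26, limma adjusted p = 0.0184). No alpha chain gene was called without apCAFs 1, apCAFs 2 or any 1 of the nonapCAFs libraries. The most abundant alpha chain genes did not pass. Itga5, the fibronectin receptor chain gene, had 43199 ± 2637 in apCAFs and 34851 ± 8810 in nonapCAFs (log2 0.34, limma adjusted p = 0.473; -0.078 with median-centred values). Itga3, a laminin receptor chain gene, had 9673 ± 3499 in apCAFs and 14156 ± 878 in nonapCAFs (SD, n = 3 each; log2 -0.62, limma adjusted p = 0.345).

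Of 15 measured alpha V ligand genes, 1 was called higher and none lower (median 0.35). Thbs1, which encodes thrombospondin 1, a matrix protein with an RGD sequence, had 217087, 217906 and 222028 normalized counts in apCAFs 1, 2 and 3, against 54004, 65804 and 32343 in nonapCAFs 4, 5 and 6 (log2 2.17, SE 0.29, limma adjusted p = 0.0249). Fn1, the fibronectin gene and the most abundant of the list, had 695103 ± 99095 in apCAFs and 367693 ± 77395 in nonapCAFs (SD, n = 3 each; log2 0.93, limma adjusted p = 0.0961), with a DESeq2 adjusted p of 4.51e-05 in the authors' deposited table and a log2 fold change of -0.22 with quantile-normalized values. Thbs1 kept its limma call without nonapCAFs 6 and lost it without any other library (adjusted p from 0.0509 to 0.0865). Of 12 measured ligand genes of beta 2, 4 and 7, 2 were called higher and none lower. The median was 2.24, with several members near 0, and 1.71 among the 9 with a mean of at least 10 or 1.11 with a pseudocount of 10. The called genes were Icam1, a ligand of beta 2 integrins, at 6.95-fold (limma adjusted p = 0.014), and C3, whose fragment iC3b binds beta 2 integrins, at 7.51-fold (limma adjusted p = 0.0185). Icam1 lost its call without apCAFs 2, just past the threshold at a log2 fold change of 2.90, and C3 without apCAFs 1, apCAFs 2, nonapCAFs 4 or nonapCAFs 5 (0.0550 to 0.0740). Fgb, a fibrinogen chain gene of this list, was at 0 in all libraries.

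Of 15 TGF-beta latency, receptor and target genes, 3 were called higher and none lower (median 0.35). This list shares Tgfb1, Tgfb3, Ltbp1 and Ltbp3 with the alpha V ligands, and Tgfb3 is the median gene of both. Tgfb2, which encodes a TGF-beta ligand, had 1819, 1877 and 4170 normalized counts in apCAFs 1, 2 and 3, against 483, 512 and 592 in nonapCAFs 4, 5 and 6 (log2 2.20, SE 0.37, limma adjusted p = 0.0403). Ltbp2, a latent TGF-beta binding protein family member, was 2.96-fold higher (limma adjusted p = 0.0209), and the receptor gene Tgfbr2 was 2.64-fold higher (limma adjusted p = 0.032). Ltbp2 lost its call without apCAFs 1, apCAFs 2, nonapCAFs 4 or nonapCAFs 5 (limma adjusted p from 0.0622 to 0.0726). Tgfb2 and Tgfbr2 kept theirs without apCAFs 3 and lost them without any other library (limma adjusted p from 0.0725 to 0.139). The latency peptides that alpha V integrins bind come from Tgfb1 and Tgfb3, named outside the rule. Tgfb1 had 6080 ± 854 in apCAFs and 6245 ± 962 in nonapCAFs, and Tgfb3 had 12776 ± 1757 in apCAFs and 10404 ± 3523 in nonapCAFs (SD, n = 3 each), and the groups overlapped for both.

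Of 25 genes of proteins that bind beta chain tails or the adhesion complex, called adaptors here, 1 was called higher and none lower (median 0.03). The called gene, Lims2, was named because it was the only one; it encodes an adaptor of the integrin-linked kinase complex and had 522.7 ± 74.4 in apCAFs and 167.3 ± 41.7 in nonapCAFs (log2 1.66, SE 0.24, limma adjusted p = 0.0296). No adaptor gene was called when any library but nonapCAFs 6 was left out. Flna, the filamin A gene, had 97142 ± 1661 in apCAFs and 99533 ± 3323 in nonapCAFs. Plec, which encodes plectin, the linker of beta 4 to keratin filaments, had 43419 ± 7149 in apCAFs and 71700 ± 929 in nonapCAFs (SD, n = 3 each; log2 -0.74, limma adjusted p = 0.0907), with a DESeq2 adjusted p of 1.61e-05 in the authors' deposited table.

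**Figure D5:**
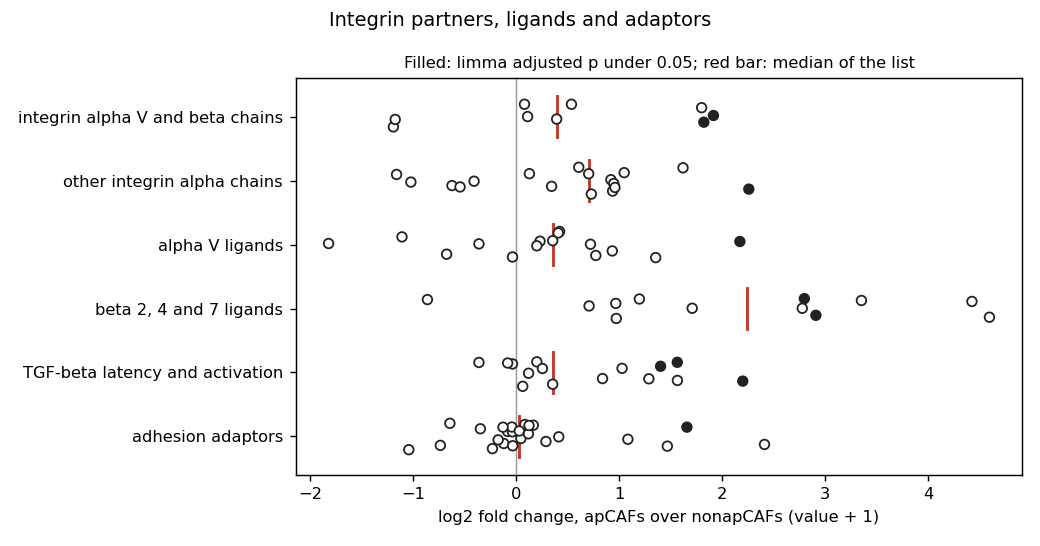
Log2 fold change (apCAFs over nonapCAFs) of each measured gene in the 9 integrin genes and in 5 lists of partners, ligands and adaptors; filled points passed limma's adjusted p of 0.05 and red bars are list medians. Called genes number 2, 1, 1, 2, 3 and 1 from top to bottom, all above 0, and the adaptors centre on 0.03. Over all genes tested, 3.91% were called higher.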

How the data were processed

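RNA-seq libraries of sorted fibroblasts, 3 of apCAFs and 3 of nonapCAFs, were analysed. The score values deposited for each library are read counts per gene that, per the file headers and the values themselves, the authors had normalized and then rounded, so no count model was used. Tools named by the submitters' processing notes, without roles or versions, are Trim Galore, Bowtie2 and DESeq2, and the build is mm10. Counter, annotation and strand: not given in the sources used here. From the authors' deposited table, p-values and adjusted p-values of DESeq2 and a log2 fold change of mean normalized counts were copied, per the file headers; 12 of its columns of per-library values were not used.

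limma 3.58.1 (R 4.3.3) was fitted to log2(value + 1) of the 36443 genes above 0 in any library, with group as the only term, as planned for normalized values. Tests were two-sided, with Benjamini-Hochberg adjustment over all genes tested, called at 0.05. The fit was run on simulated data as well. Those libraries were drawn independently, without close pairs, so that run cannot show how the close pairs affect the p-values. Fold changes on this scale understate changes of low genes. Levels per kilobase use the summed exons of GENCODE M21. Read coverage along the exons was not examined, so comparisons between genes on this scale depend on those lengths. Coding ends are from each gene's longest complete coding transcript there. The members and the 5 pathway and 7 marker lists were chosen with earlier results of these data known. Named list genes were up to 4 called genes by smallest p, or the 2 most abundant where fewer than 2 passed; for each of the 8 members with a mean of at least 100, the 2 genes with the most similar centred log2 profile were sought. In all, 16 alternative settings were tried, 6 of them leaving out a library.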

Additional observations from a re-analysis of the deposited data

How the results depend on the processing

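When each close pair (apCAFs 1 and 2, nonapCAFs 4 and 5) was replaced by its mean, limma called 0 genes (4700 at an unadjusted p under 0.05), so 0 members and 0 genes of every list, with Itgb4 at 1.85 (limma adjusted p = 0.194), Itgb8 at 2.09 (0.225) and Itgb6 reversed at -0.047; this fit has fewer libraries. Otherwise limma called 1602 genes as reported, 2465 and 2748 with a mean of at least 10 and of at least 100, 2527 with a pseudocount of 10 and 3453 with a variance trend. In those 4 settings, in that order, the called genes numbered 3, 3, 3 and 5 for alpha chains, 3, 4, 3 and 4 for alpha V ligands, 5, 7, 5 and 7 for the TGF-beta list and 4, 4, 4 and 5 for adaptors, and the ligands of beta 2, 4 and 7 numbered 5 with the variance trend.

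Other scalings put the median of all genes, -0.04 as reported, at -0.46 (median-centred), -0.19 (quantile-normalized), -0.14 (upper-quartile-centred) and -0.18 (library totals). With median-centred values 1 member was called, with Itgb8 at 1.49 (limma adjusted p = 0.0532), 0 alpha V ligands and 0 TGF-beta genes; with quantile-normalized values 1 TGF-beta gene. Some log2 fold changes, none of them called, changed sign: Itgav at -0.31 (median-centred) and -0.042 (library totals), Itgb1 at -0.34 (median-centred), -0.12 (quantile-normalized), -0.023 (upper-quartile-centred) and -0.073 (library totals), Itgb5 at -0.029 and Itga5 at -0.078 (median-centred), and Fn1, 0.93 as reported, at -0.22 (quantile-normalized). The cause was not tested.

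Leaving out 1 library gave 310 to 1791 called genes, 0 to 2 members, 0 to 2 alpha chains, 0 to 1 alpha V ligands, 0 to 4 ligands of beta 2, 4 and 7, 0 to 3 TGF-beta genes and 0 to 1 adaptors. The fewest genes were called without apCAFs 2 (310), then without apCAFs 1 (411), nonapCAFs 4 (464, 271 higher and 193 lower), nonapCAFs 5 (499, 301 higher and 198 lower) and nonapCAFs 6 (810). Log2 fold changes lay from 1.73 to 1.94 for Itgb4, 1.67 to 2.06 for Itgb8, -0.016 (without nonapCAFs 6) to 0.21 for Itgav and 0.59 to 3.91 for Itgb6. Of the 176 values of the 11 named list genes under these settings, 129 kept direction and call, 37 lost the call, 8 gained it and 2 changed sign. Itgb6 has no value with a mean of at least 100. No paired analysis was possible because the 2 groups share no replicate number and the labels do not say which libraries came from one experiment.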

Other observations

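Genes related to the integrin beta chains by name were looked at after the main values were seen. Itgbl1, which encodes a secreted protein related to the beta chains, had 177, 252 and 401 normalized counts in apCAFs 1, 2 and 3, against 199, 258 and 257 in nonapCAFs 4, 5 and 6, and the groups overlapped. Itgb2l, a close relative of Itgb2, read 0 to 7 in apCAFs and 0 to 12 in nonapCAFs. Itgb1bp2, the gene of a beta 1 tail-binding protein known from muscle, read 23 to 35 in apCAFs and 26 to 51 in nonapCAFs. The 2 genes with profiles most like that of Itgb8 were Gm26902 (root mean square difference 0.0811 in centred log2 values) and Phf11d (0.0819), and Itgb4 was closest to 4933416M07Rik (0.108) and Rsph9 (0.116).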
